A study of Mus musculus with 4 samples.

Results

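Histone genes were measured in 2 control and 2 Np95 knockout RNA-seq libraries of mouse spermatocytes. A row belonged here if its symbol matched Hist1h, Hist2h, Hist3h or Hist4h or began with H2af, H3f3 or H1f, H2afx being left out. Of 24388 gene symbols, 83 met this rule. They were 65 replication-dependent genes, 12 replacement variants and 6 testis variants (Hist1h1t, Hist1h2ba, Hist1h2aa and the H2afb genes).

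Both groups were C57BL/6 mice with an age label of 21 dpc, an abbreviation that the labels do not spell out, and they differed in genotype, control against knockout of Np95 (gene symbol Uhrf1), which directs maintenance of DNA methylation after replication. The study asked how methylation kept in germ cells before meiosis bears on meiotic prophase. Testis tubules were digested to a suspension with no sorting step described, so other testis cells can be present. The column headers read Np95cKO, and how the knockout was driven or whether animals were pooled, is not given in the sources used here. Nothing says that the 2 libraries of a group came from separate mice, so each p-value reflects only the scatter of libraries within a group, and that scatter may be technical.

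Histones package DNA into nucleosomes, each holding the core histones H2A, H2B, H3 and H4, with linker histone H1 between nucleosomes. Replication-dependent histone genes sit in clusters, mostly lack introns and are transcribed in S phase, and their mRNAs end in a stem-loop instead of a poly(A) tail. Replacement variants such as H3.3 and H2A.Z come from genes outside these clusters, with ordinary polyadenylated mRNAs, and are deposited outside S phase. Male germ cells add their own variants, H1t, TH2A and TH2B in meiosis and short H2A forms in spermatids, before protamines replace most histones.

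The libraries were poly(A) selected, so mRNAs that end at the stem-loop are captured poorly and a value for a replication-dependent gene covers its polyadenylated or otherwise retained transcripts. The stem-loop motif was searched in GENCODE transcripts of build GRCm38. It was found in 44 of the 83 members, 43 of them replication-dependent and 1 of them Hist1h1t, and in 0.219% of 21877 protein-coding genes. The 6 forms found are shown because they are what sets this mRNA class apart. Capitals mark the 6-base stem on each side and lower case the 4-base loop.
Hist1h2ag, a form carried by 26 members: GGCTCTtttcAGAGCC
Hist1h1t, a form carried by 6 members: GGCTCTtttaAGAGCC
Hist2h2ac, carried by 1 member: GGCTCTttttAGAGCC
Hist1h4c, carried by 7 members: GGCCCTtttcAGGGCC
Hist1h4i, carried by 2 members: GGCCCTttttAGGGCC
Hist1h4b, carried by 2 members: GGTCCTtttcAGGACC
The last 3 forms occurred in H4 genes only, and the first 3 in H1, H2A, H2B and H3 genes. Many annotated transcripts stop at the stop codon, so a missing motif says only that these letters are not in the annotated transcript. Some transcripts are annotated well past the stem-loop. Among replication-dependent genes 18 reached over 300 bases beyond it and 22 ended within 100 bases of it. The first set summed to 69.7 and 77.1 RPKM in the control libraries and 65.6 and 67.1 in the knockout libraries, and the second to 90.8 and 89.1 against 83.5 and 84.9. In both sets the knockout sums lay a little below the control sums, 1.11-fold and 1.07-fold on average.

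RPKM is a read count scaled to the length of the gene and the depth of the library. A gene was tested if it reached 1 RPKM in at least 2 of the 4 libraries. The test was limma on log2(RPKM + 1) over 9099 genes, and a gene is called at a Benjamini-Hochberg adjusted p under 0.05. Folds are ratios of mean RPKM. Of the 83 members 50 were tested and 33 were not. Of those tested 19 rose, 18 fell and 13 were not called, where 73.8% of all tested genes were called. H1fnt, H2afb1 and H2afb2 were listed at 0 in all 4 libraries. Hist1h2ak, Hist1h2bc and Hist1h4k were below 1 RPKM in both control libraries and passed only through the knockout, while Hist1h2aa and H2afb3 were below 1 in both knockout libraries and passed only through the control.

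Uhrf1 had 3.11 and 3.29 RPKM in the control libraries and 1.87 and 1.48 in the knockout libraries, 1.91-fold lower (limma adjusted p = 0.0031). The steps between low values put the depth at 5820000 and 12860000 steps in the control libraries, and at 11140000 and 4840000 in the knockout libraries. Whether a step is a single read or a pair is not known. For Hist1h2ai, with a span of 393 bases, 1 RPKM is then 2.29, 5.06, 4.38 and 1.90 steps in that order. Values near 1 RPKM therefore rest on a few steps, above all in control replicate 1 and knockout replicate 2. Across all tested genes 43.3% were called higher and 30.5% lower in the knockout, with a median log2 fold change of 0.14.

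Among tested replication-dependent genes the calls were mostly higher in the Hist1 cluster and mostly lower in the Hist2 cluster. Of the 37 tested, 17 rose (45.9%) and 11 fell (29.7%), shares near the 43.3% and 30.5% of all genes. Split by cluster, 17 of 27 tested Hist1 genes rose and 4 fell, while 0 of 8 tested Hist2 genes rose and 7 fell. By type, 11 of 13 tested H2A genes of Hist1 rose, against 1 of 2 H1, 3 of 7 H2B and 2 of 5 H4 genes. The H1, H2B and H4 shares (50%, 42.9% and 40%) lay near the 43.3% of all genes, and no Hist1 H3 gene was tested. These and later counts of calls take rows with identical values separately, although each such pair is 1 measurement. The 3 pairs are Hist2h2aa1 and Hist2h2aa2, Hist2h3c1 and Hist2h3c2, and Hist1h2bq and Hist1h2br. The median log2 fold change was 0.78 for Hist1 and -1.17 for Hist2, against 0.14 for all genes. The 2 Hist3 genes tested were not called, and Hist4h4 was not tested. In a suspension of many cells, fewer cells of a type and less RNA per cell cannot be told apart. Without the filter 17 of 52 Hist1 genes were higher and 2 lower, and 0 of 10 Hist2 genes were higher and 7 lower, where 34.8% and 16.2% of all 21208 genes were higher and lower. On that count the share of Hist1 genes called higher was near that of all genes.

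Most replication-dependent genes have 1 exon (60 of 65), so their RPKM is close to a value per transcript length and can be summed. Rows with identical values were counted once. The Hist1 cluster, on chromosome 13, summed to 84.9 and 88.3 RPKM in the control libraries and 140 and 170 in the knockout libraries, a ratio of means of 1.79. The Hist2 cluster, on chromosome 3, summed to 125 and 123 RPKM in the control and 52.3 and 47.4 in the knockout, 2.49-fold lower. All clusters together came to 238 and 245 RPKM in the control libraries, and to 218 and 244 in the knockout libraries. The total thus overlapped between the groups, while neither large cluster did.

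**Figure D1:**
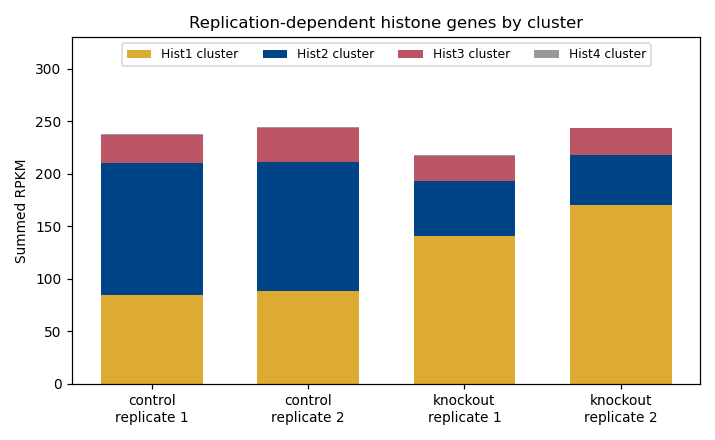
Summed RPKM of the replication-dependent histone genes in each library, stacked by genomic cluster, rows with identical values counted once. The Hist1 part is 84.9 and 88.3 RPKM in the control and 140 and 170 in the knockout, and the Hist2 part 125 and 123 against 52.3 and 47.4.

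As shares of the summed RPKM, Hist1 took 35.7% and 36.1% in the control libraries and 64.4% and 69.99% in the knockout libraries. Hist2 took 52.6% and 50.2% in the control and 24.0% and 19.4% in the knockout. Such shares do not depend on how libraries are scaled to each other. The ratio of Hist1 to Hist2 was 0.678 and 0.719 in the control libraries against 2.68 and 3.60 in the knockout libraries. No test was run on these sums.

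H2A genes made up most of the Hist1 sum, 54.1 and 55.9 RPKM in the control libraries against 95.1 and 130 in the knockout libraries. All 13 H2A rows of the cluster were tested, of which 11 rose (84.6%), 1 fell and 1 was not called. Of all tested genes 43.3% rose and 30.5% fell. Each row that rose, other than Hist1h2ac and Hist1h2ae, shared over 50% of its 50-base transcript windows with other genes. The 11 rises may therefore not be separate measurements. Hist1h2ag had 5.94 and 6.66 RPKM in the control libraries against 19.9 and 20.6, 3.22-fold higher (log2 fold change 1.55, SE 0.10, limma adjusted p = 0.0014). Hist1h2ac had 5.69 and 4.97 RPKM in the control libraries and 11.0 and 10.8 in the knockout libraries, 2.05-fold higher (limma adjusted p = 0.0015). For both genes the knockout libraries lay close together and well above the control.

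Knockout replicate 2 was the highest library for several neighbours. Hist1h2ad had 6.12 and 5.10 RPKM in the control and 8.55 and 16.8 in the knockout. Hist1h2ah had 3.81 and 5.12 against 8.33 and 15.5. The knockout libraries of these genes lay far apart, for Hist1h2ad farther than the group means, and their adjusted p was 0.033 and 0.016. Hist1h2af, at 6.22 and 4.82 against 7.87 and 12.3 RPKM, had an adjusted p of 0.030. Its call and that of Hist1h2ad ended with libraries centred on an equal median (limma adjusted p = 0.071 and 0.061), and without the filter neither they nor Hist1h2ah were called (0.080, 0.089 and 0.053). Hist1h2ad also lost its call without control replicate 1 (0.051) or 2 (0.094), Hist1h2ah without control replicate 1 (0.051), and Hist1h2af without control replicate 2 (0.11) or knockout replicate 2 (0.073). Hist1h2ai, at 5.79 and 6.10 against 6.19 and 12.6 RPKM, was not called (adjusted p = 0.18), although its groups did not overlap. It was called higher without knockout replicate 1 (0.0018) and when every library had an equal RPKM sum (0.045).

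The less abundant H2A genes of the cluster rose by 1.88-fold to 4.02-fold. Hist1h2an went from 4.03 and 4.55 RPKM to 8.05 and 11.1, 2.23-fold. Hist1h2ae rose 1.88-fold from 2.79 and 3.38 RPKM, and Hist1h2ab 2.78-fold from 2.23 and 2.29. Hist1h2ao and Hist1h2ap, whose transcripts share over 93% of their 50-base windows, rose 3.13-fold and 3.09-fold. Hist1h2ak went from 0.799 and 0.733 RPKM to 2.86 and 3.30, 4.02-fold. For all of these both knockout libraries were above both control libraries, as for 51.8% of all tested genes.

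Hist1h2al was the H2A row of the cluster that fell. It went from 7.97 and 9.11 RPKM to 3.38 and 3.66, 2.43-fold lower (limma adjusted p = 0.0014). GENCODE lists it as a processed pseudogene, and 67.6% of its 50-base windows occur identically in Hist2 genes against 7.2% in other Hist1 genes. Reads of Hist1h2al and of the Hist2 H2A genes can thus not be told apart over most of its length.

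In the Hist2 cluster the rows with the highest levels fell together. Hist2h2aa1 and Hist2h2aa2, which encode H2A, held the same values and count as 1 measurement, 39.1 and 38.2 RPKM in the control libraries against 17.4 and 15.9. That is 2.32-fold lower (log2 fold change -1.17, SE 0.10, limma adjusted p = 0.0014). Hist2h3c1 and Hist2h3c2, which encode H3, likewise shared 1 set of values, 29.4 and 28.7 RPKM against 13.9 and 13.1, 2.15-fold lower. Hist2h2ac, another H2A gene, had 18.4 and 19.9 RPKM against 6.41 and 5.77, 3.14-fold lower. Hist2h2ab was 3.34-fold lower, from 9.05 and 6.73 RPKM to 2.21 and 2.51. For each of these both knockout libraries lay below both control libraries, as for 38% of all tested genes.

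Hist2h2be, an H2B gene, fell from 28.7 and 27.4 RPKM to 10.9 and 7.47, 3.06-fold (log2 fold change -1.53, SE 0.18, limma adjusted p = 0.0017). None of its transcript's 50-base windows occurs in another annotated gene (0%), so its value does not rest on windows held by another histone gene. Its annotated transcript has 2620 bases and a poly(A) signal at the end. The remaining Hist2 genes were low. Hist2h3b varied within the control, 0.171 and 1.76 RPKM against 1.35 and 1.46 in the knockout, and was not called. Without control replicate 2 it was the 1 Hist2 gene called higher. Hist2h2bb and Hist2h4 were not tested.

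**Figure D2:**
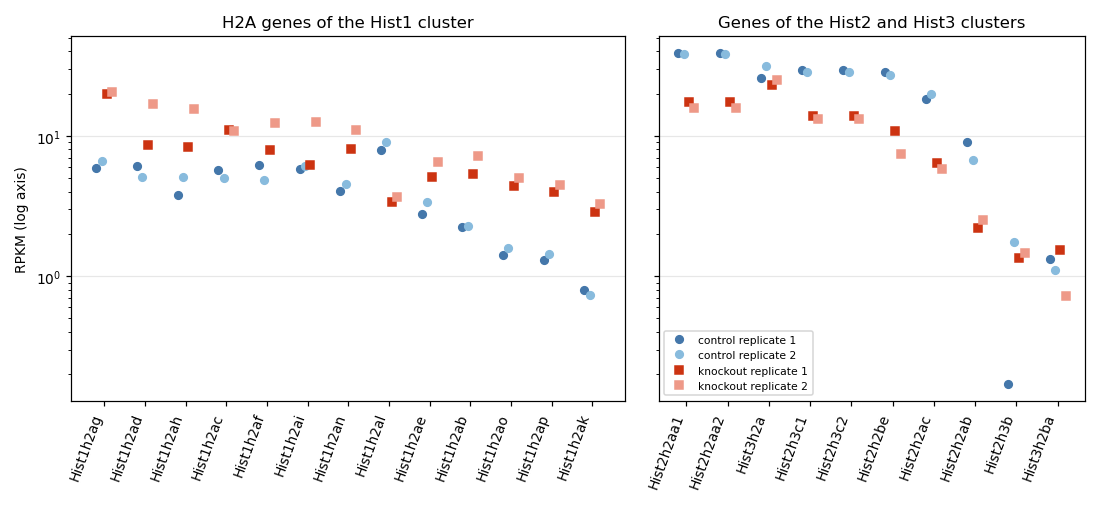
RPKM on a log axis in each of the 4 libraries for the tested H2A genes of the Hist1 cluster (left) and the tested genes of the Hist2 and Hist3 clusters (right). Knockout squares lie above control circles for the Hist1 H2A genes except Hist1h2al, and below them for the Hist2 genes except Hist2h3b.

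Near-identical coding sequence limits how far single rows can be read, and how the counting treated reads that fit several genes is not given in the sources used here. Among the replication-dependent genes 35 shared at least 50% of their 50-base windows with another gene and 30 shared less. Of the 14 tested genes in the less shared set 5 rose (35.7%) and 3 fell (21.4%), below the 43.3% and 30.5% of all genes. Those that rose were Hist1h1c, Hist1h2ac, Hist1h2ae, Hist1h2bc and Hist1h4i, and those that fell were Hist2h2be, Hist1h2bp and Hist1h4h. Hist1h2ac, with 14.1% of windows shared, and Hist2h2be, with 0%, moved in opposite directions by 2.05-fold and 3.06-fold. Of the 23 tested genes in the more shared set 12 rose and 8 fell.

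**Figure D3:**
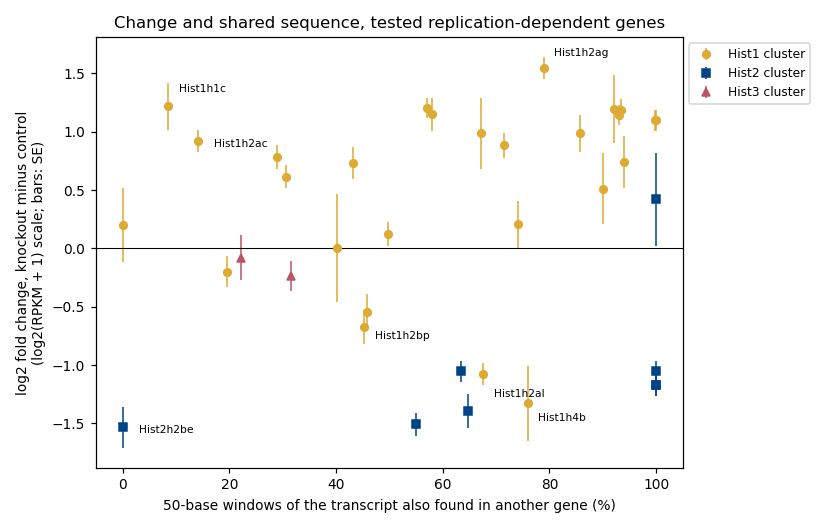
Log2 fold change on the log2(RPKM + 1) scale with its SE against the percentage of 50-base windows that each transcript shares with another gene, for the 37 tested replication-dependent genes, by cluster. Rises in Hist1 and falls in Hist2 appear both at low sharing (Hist1h1c at 8.5%, Hist2h2be at 0%) and at 100%.

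The other histone types of the Hist1 cluster were low in these libraries. Of the linker genes Hist1h1c rose from 1.84 and 2.997 RPKM to 5.96 and 7.82, 2.85-fold (limma adjusted p = 0.0042). Hist1h1a, at 1.97 and 1.26 against 1.18 and 3.05 RPKM, was not called and its groups overlapped. Hist1h1b, Hist1h1d and Hist1h1e were at 0.300 RPKM or below in each library and were not tested.

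Of 14 H2B rows in the Hist1 cluster 7 were tested, of which 3 rose (42.9%), 1 fell (14.3%) and 3 were not called. Of all tested genes 43.3% rose, a share near that of these rows, and 30.5% fell. Hist1h2bq and Hist1h2br held identical values and are 1 measurement, 1.09 and 1.23 RPKM in the control and 3.37 and 3.87 in the knockout, 3.12-fold higher. Hist1h2bc rose 2.39-fold from 0.566 and 0.681 RPKM and passed the filter only through the knockout. Its annotated span covers 8710 bases with an intron, so its RPKM is lower than a value per transcript length would be. Hist1h2bp fell 2.13-fold, from 2.10 and 2.55 RPKM to 1.34 and 0.842 (limma adjusted p = 0.0094). Hist1h2bb, Hist1h2bg and Hist1h2bk overlapped between groups and were not called.

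The 9 H3 genes of the Hist1 cluster were all untested, with no value above 1.28 RPKM in any library. Of the 11 H4 genes in the cluster 5 were tested. Hist1h4i rose 2.06-fold, from 1.81 and 2.30 RPKM to 4.23 in both knockout libraries, and Hist1h4k 3.50-fold from 0.631 and 0.380. Hist1h4b fell from 3.37 and 3.15 RPKM to 1.38 and 0.210, 4.11-fold, and Hist1h4h from 4.94 and 3.67 to 2.89 and 2.36, 1.64-fold. Without the filter Hist1h4b and Hist1h4h were no longer called (adjusted p = 0.051 and 0.059), and Hist1h4h lost its call on scaling to equal RPKM sums (0.21), without control replicate 1 (0.093) and without knockout replicate 2 (0.099). Hist1h4c, at 2.36 and 2.46 against 1.62 and 2.36 RPKM, was not called. Outside the 2 large clusters, Hist3h2a was abundant and not called, with 25.8 and 31.5 RPKM in the control libraries against 23.1 and 25.0. Its sign turned with an equal RPKM sum and with quantile normalization, and with an equal median it was called lower (adjusted p = 0.031). It overlaps Trim17, which holds 31.5% of its windows, and the libraries do not mark strand.

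Most H2A and H2B genes of the Hist1 cluster stand in divergent pairs that start back to back on opposite strands. RefSeq starts placed 9 such pairs of members within 1000 bases, at distances of 164 to 281 bases. Only the 75 members with a RefSeq promoter could be paired. Hist1h2bc, Hist1h2ap and Hist2h2be had none listed, so any pair that they form is not counted here. Hist1h2bq and Hist1h2ao, 168 bases apart, both rose, 3.12-fold and 3.13-fold, although the Hist1h2bq value is also that of Hist1h2br. Hist1h2an and Hist1h2bp, 240 bases apart, went in opposite directions, 2.23-fold higher and 2.13-fold lower. In the other 6 pairs of replication-dependent genes the H2B partner was not tested or not called, and in 5 of them the H2A partner rose.

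The ninth pair is the testis pair Hist1h2aa and Hist1h2ba, which encode TH2A and TH2B, with 281 bases between their starts. Hist1h2aa fell while Hist1h2ba was not called. The 250 bases upstream of Hist1h2aa cover most of this shared region and are shown with those of 3 other members that the results turn on. They come from RefSeq tables of build GRCm38.p6, in which 75 of the 83 members had a promoter, while the authors' build was mm9. Motifs were searched on both strands: the CCAAT box as its name spells it, the TATA box as TATAAA, the octamer bound by Oct transcription factors as ATTTGCAT, the cAMP response element as TGACGTCA and an E2F site as TTTGGCGC. Capitals mark the matches.
Hist1h2aa, chr13:23934187-23934436, plus strand: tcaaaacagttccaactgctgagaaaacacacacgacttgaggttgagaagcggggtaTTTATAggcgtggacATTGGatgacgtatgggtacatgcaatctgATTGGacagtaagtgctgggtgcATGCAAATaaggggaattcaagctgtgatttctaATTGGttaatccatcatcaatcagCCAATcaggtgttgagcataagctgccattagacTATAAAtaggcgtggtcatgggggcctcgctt
Hist1h1t, chr13:23695561-23695810, plus strand: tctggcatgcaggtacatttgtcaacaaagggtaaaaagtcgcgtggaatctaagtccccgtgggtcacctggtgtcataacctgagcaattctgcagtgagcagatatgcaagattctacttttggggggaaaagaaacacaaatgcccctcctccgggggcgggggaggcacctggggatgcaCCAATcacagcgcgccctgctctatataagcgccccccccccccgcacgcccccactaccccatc
Hist1h2ag, chr13:22042950-22043199, minus strand: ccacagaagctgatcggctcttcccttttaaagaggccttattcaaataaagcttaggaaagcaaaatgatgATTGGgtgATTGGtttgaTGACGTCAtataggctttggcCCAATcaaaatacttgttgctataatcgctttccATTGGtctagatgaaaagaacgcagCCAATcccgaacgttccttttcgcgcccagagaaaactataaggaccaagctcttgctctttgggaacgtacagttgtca
Hist2h2ac, chr3:96220881-96221130, minus strand: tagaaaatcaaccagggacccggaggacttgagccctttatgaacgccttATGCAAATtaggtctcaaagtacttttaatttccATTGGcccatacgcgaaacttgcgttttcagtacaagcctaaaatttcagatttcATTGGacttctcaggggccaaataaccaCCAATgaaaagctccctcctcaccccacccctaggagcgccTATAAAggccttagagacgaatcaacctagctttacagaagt
The Hist1h2aa region holds 4 CCAAT boxes, 2 TATA boxes, 1 on each strand, and 1 octamer, a motif known from H2B promoters. Hist1h1t has 1 CCAAT box in this window. Hist1h2ag has 5 CCAAT boxes and 1 cAMP response element, in a region that also lies upstream of its untested partner Hist1h2bj. Hist2h2ac has 3 CCAAT boxes, 1 octamer and 1 TATA box. Hist1h2ab, Hist1h2ac and Hist1h2ae, which rose, also have an octamer and a TATA box. Of 11 Hist1 H2A promoters 4 held an octamer, 4 a TATA box and 1 the cAMP response element. Whether motifs go with the direction of change was not tested.

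Across the members the motifs followed the histone type. A CCAAT box was found in all 16 H2A and all 15 H2B promoters of replication-dependent genes, against 33.85% of 32851 promoters. It was also in all 5 H1 and 8 of 10 H3 promoters, and in 3 of 12 H4 promoters. Partners of a divergent pair share much of this region, so the H2A and H2B counts are not separate. The octamer was in 6 of 16 H2A and 5 of 15 H2B promoters and in 0 of 12 H4 promoters, against 1.6% overall. The E2F site as spelled was in 0 of the 75 member promoters and in 0.42% overall. The median number of CpG sites in the 250 bases was 7 for the Hist1 H2A genes and 15 for the Hist2 genes of all types. It was 4 for the testis variants, 19 for the replacement variants and 6 over all promoters. The Hist2 genes were mixed, with 20 to 34 sites for Hist2h2aa1, Hist2h2aa2, Hist2h3c1 and Hist2h3c2. Hist2h2ab and Hist2h2ac, which fell too, had 7 each, and Hist2h2be had no promoter listed. CpG is the dinucleotide that DNA methylation marks, and no methylation was measured in these libraries.

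Testis variants were low. Of the 4 tested 3 fell (75%), where 30.5% of all tested genes fell. Hist1h1t, the linker histone H1t of pachytene spermatocytes, had 3.46 and 3.11 RPKM in the control libraries and 1.53 and 0.852 in the knockout libraries, 2.76-fold lower (log2 fold change -0.98, SE 0.16, limma adjusted p = 0.0041). Hist1h2aa had 2.11 and 1.87 RPKM in the control against 0.607 and 0.463, 3.72-fold lower (limma adjusted p = 0.0014). H2afb3, an X-linked short H2A of spermatids, had 1.85 and 1.80 RPKM in the control against 0.266 and 0.642, 4.02-fold lower (limma adjusted p = 0.0026). The knockout libraries lay below both control libraries for all 3 genes, as for 38% of all tested genes. Hist1h2aa and H2afb3 passed the filter only through the control, so their being tested is tied to their higher control values. By annotated span, about 17.7 steps over the 4 libraries stand behind Hist1h2aa and 13.9 behind H2afb3, which lies within the span of Pcdh11x.

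Hist1h2ba, encoding TH2B, the H2B form that male germ cells take up in meiosis, had 6.90 and 5.96 RPKM in the control libraries, 9.68 in knockout replicate 1 and 5.22 in knockout replicate 2. Its knockout libraries lay on either side of the control, and it was not called (log2 fold change 0.14, SE 0.27, limma adjusted p = 0.67). Without knockout replicate 2 it was called higher (log2 fold change 0.53, limma adjusted p = 0.020), without knockout replicate 1 the value was -0.25 (adjusted p = 0.11), and with an equal median its sign turned too (-0.06). Of its 50-base windows 38.2% are shared with replication-dependent H2B genes. Whether Hist1h2aa and Hist1h2ba differ in their change was not tested.

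The fall of the testis variants came with lower markers of later germ cells. All 11 tested of 12 pachytene markers fell, where 30.5% of all tested genes fell. The list's summed RPKM was 1223 to 1245 in the control and 456 to 578 in the knockout. The most abundant were Hspa2, a meiotic heat shock protein, 1.80-fold lower at a mean of 381 RPKM, and Ldhc, the testis lactate dehydrogenase, 4.23-fold lower at 50.4 RPKM. The Hspa2 call ended without the filter (limma adjusted p = 0.077), and with quantile normalization 9 of the 11 were lower. Of the spermatid markers 3 of 4 tested fell, with sums of 322 to 330 against 64.7 to 103 RPKM, nearly all of it Dnajb3, at means of 316 and 79.1. RPKM is per gene span, introns included, so list sums and ranks of abundance here and below lean on genes of short span. The part of these markers in the histone values was not tested.

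Replacement variants moved gene by gene. Of the 12, 9 were tested, 2 of which rose and 4 fell, where 43.3% of all tested genes rose and 30.5% fell. H1f0, the linker histone H1.0 of cells that have left the cycle, rose from 15.1 RPKM in both control libraries to 35.1 and 37.9, 2.42-fold (log2 fold change 1.22, SE 0.10, limma adjusted p = 0.0014). H1fx, a linker variant of broad expression, had 124 and 146 RPKM in the control against 191 and 201, 1.45-fold higher (limma adjusted p = 0.021). Its call ended with an equal median (0.081), with the replicate number as a block (0.052), without the filter (0.062) and without either control library (0.23 and 0.089). H1foo, the oocyte linker histone, did not exceed 0.119 RPKM in any library.

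H2afy3 changed most among the replacement variants. This macroH2A-related row, which GENCODE lists as a processed pseudogene inside the Pvt1 locus, had 21.8 and 22.8 RPKM in the control libraries against 7.42 and 6.22, 3.27-fold lower (log2 fold change -1.58, SE 0.11, limma adjusted p = 0.0014). H2afy, encoding macroH2A1, an H2A with an added macro domain, fell from 2.95 and 3.05 RPKM to 2.02 and 1.98, 1.498-fold. Scaling to equal RPKM sums ended that call (limma adjusted p = 0.22). H2afy2, encoding macroH2A2, did not exceed 0.112 RPKM and was not tested. With introns, H2afy spans 62743 bases and H2afy2 45483, against 1112 for H2afy3. RPKM is per gene span, so the levels of these 3 rows are not comparable. Reads of H2afy3 and H2afy2 can mix over 13.4% of the H2afy3 transcript.

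H2afz, encoding H2A.Z, a variant placed around promoters, had 57.7 and 63.3 RPKM in the control libraries against 34.1 and 29.3, 1.91-fold lower (log2 fold change -0.91, limma adjusted p = 0.0025). Of its windows 60.8% also occur in Tmcc1, and with quantile normalization it was no longer called (0.050). H2afv, the gene of the second H2A.Z form, had 3.52 and 3.87 RPKM against 4.12 and 4.04 and was not called, while with an equal RPKM sum it was called higher (0.0048). H2afj had 15.9 and 16.2 RPKM against 11.9 and 15.6 and was not called, its sign turning with an equal RPKM sum and with quantile normalization. It was called lower with an equal median (0.042) and without knockout replicate 2 (0.013).

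The H3.3 genes, H3f3a and H3f3b, encode the H3 form that is deposited without replication. H3f3b had the highest RPKM of the members, 341 and 340 in the control libraries against 327 and 303, and was not called (limma adjusted p = 0.51). Without knockout replicate 1 it was called lower (0.044). With quantile normalization it was called higher (log2 fold change 0.90), and with an equal RPKM sum its sign turned as well. H3f3a fell from 11.9 and 11.7 RPKM to 9.37 and 8.85, 1.30-fold (limma adjusted p = 0.016), a call that ended with quantile normalization (0.14), without control replicate 1 (0.13) or 2 (0.11), and with an equal RPKM sum, where the sign turned. Both genes contain introns, as do H2afz, H2afv, H2afy and H2afy2. RPKM here is per gene span, so the levels of these genes are not comparable with each other or with the intronless histone genes.

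**Figure D4:**
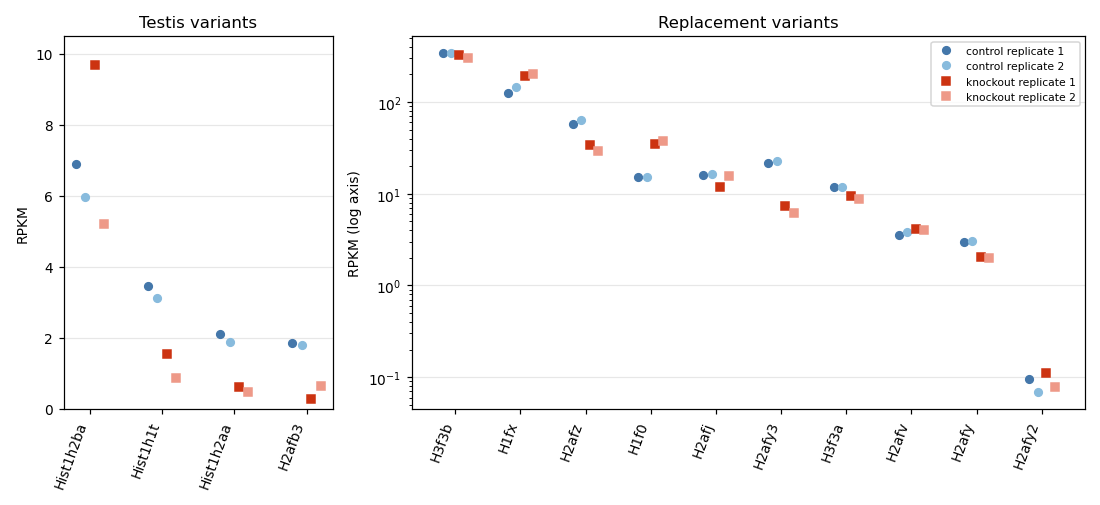
RPKM in each of the 4 libraries for the testis variants above 0 (left, linear axis) and for the replacement variants above 0 in every library (right, log axis). Knockout squares lie below control circles for Hist1h1t, Hist1h2aa, H2afb3, H2afz and H2afy3, above them for H1f0 and H1fx, and on both sides for Hist1h2ba.

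Genes that supply, process and chaperone histones moved both ways. Of 46 listed genes 41 were tested, 21 of which rose and 7 fell (median log2 fold change 0.26, against 0.14 for all genes), next to 43.3% and 30.5% of all genes. Of the 41, 5 were below 1 RPKM in both control libraries and passed the filter only through the knockout, Cstf2 and E2f1 among them. Npat, which activates histone transcription in S phase, rose from 1.18 and 1.21 RPKM to 3.03 and 3.30, 2.64-fold. Casp8ap2, a partner in histone mRNA processing, rose 3.56-fold, the cleavage factor gene Cstf2 4.55-fold, the S phase factor gene E2f1 4.34-fold and the helicase subunit gene Mcm2, which also binds H3 and H4, 4.14-fold. Slbp, the stem-loop binding protein gene, was not called.

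Genes of the list that fell included Znhit1 and Yeats4, subunits of complexes that exchange H2A.Z. Other listed genes of H2A.Z exchange did not fall. Srcap rose 1.96-fold (limma adjusted p = 0.0028) and Anp32e 3.84-fold (0.0015), while Vps72 and Ep400 were not called. Znhit1 went from 42.3 and 40.3 RPKM to 15.2 and 13.2, a log2 fold change of -1.48 (limma adjusted p = 0.0014), and Yeats4 from 15.8 and 15.9 to 9.30 and 9.05. Lsm10, a part of the particle that recognizes histone pre-mRNA, went from 11.8 and 12.2 RPKM to 6.65 and 6.83. Nasp, a chaperone of H3 and H4 with a testis form, went from 27.0 to 17.8 RPKM on average, and Npm3, a nucleoplasmin, from 40.5 to 22.7. With an equal RPKM sum the list had 31 genes higher and 4 lower, and with an equal median 15 and 11. With control replicate 1 left out there were 15 and 4, and with control replicate 2 left out 15 and 5.

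For the exchange of histones to protamines, 9 of 16 genes were tested, of which 5 fell and 2 rose, next to 30.5% and 43.3% of all genes. Of the 9, 1 passed the filter only through the knockout, and without the filter 4 of the 16 were higher and 4 lower. Hils1, a linker histone of spermatids outside the naming rule, had 3.05 and 1.60 RPKM in the control against 1.06 and 0.441 (limma adjusted p = 0.029). Brdt, the testis bromodomain protein, went from 7.18 and 6.65 RPKM to 4.67 and 4.04, and Tnp2, a transition protein, from 2.69 and 2.29 to 1.03 and 0.176. Tnp1, Prm1, Prm2 and Prm3 were not tested. The acetyltransferase gene Kat8 and the proteasome activator gene Psme4 fell too, while Sirt1, a deacetylase gene, rose 1.82-fold. Only 3 of these genes were lower without control replicate 1, likewise without knockout replicate 2, and 2 with an equal RPKM sum. Hils1 was not called without the filter.

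S phase genes were higher in the libraries where Hist1 genes rose and Hist2 genes fell. Of 17 tested genes of replication and division 11 rose and 1 fell, where 43.3% of all genes rose and 30.5% fell. Their median log2 fold change was 0.94 against 0.14 for all genes, and the list's summed RPKM was 93.9 and 101.3 in the control and 139 and 142 in the knockout. Mki67 rose from 2.58 and 2.46 RPKM to 7.79 and 9.20, 3.37-fold, the helicase gene Mcm5 3.34-fold and Rrm2, of nucleotide synthesis, 2.84-fold. Mcm4, another helicase gene, had 0.816 and 0.844 RPKM in the control and passed the filter only through the knockout, where it was 4.75-fold higher. Gins2 fell from a mean of 5.39 to 4.06 RPKM. Pcna, at means of 31.3 and 26.9 RPKM, was not called. With an equal median 10 of these genes were higher and 4 lower. Without either control library or knockout replicate 2 none was lower.

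Somatic testis markers were mostly higher in the same knockout libraries. Of all tested genes 43.3% rose and 30.5% fell. All 12 tested of 15 listed Sertoli cell genes rose, and the list's summed RPKM was 111 to 130 in the control and 339 to 418 in the knockout, with Aard and Clu the most abundant. Of the 12, Wt1, Gata4 and Tjp1 were below 1 RPKM in both control libraries and passed the filter only through the knockout. Leydig cell genes rose in 5 of 6 tested (sums of 19.1 to 19.2 against 50.4 to 60.5 RPKM), with Insl3 at the head, and in 3 without control replicate 2. Of the list of peritubular and endothelial cells only Tagln, Col1a1, Col1a2 and Col3a1 were tested, and all 4 rose, with list sums of 5.77 to 5.89 against 16.2 to 23.4 RPKM. The endothelial markers Pecam1, Cdh5 and Kdr were not tested, and without the filter Cdh5 alone of them was called higher. For blood cells and macrophages 4 of 6 rose, though Hbb-b1 and Hba-a1 were not called and the sums overlapped, 44.6 to 51.1 against 40.1 to 69.2 RPKM. Without knockout replicate 2 the blood genes had 4 higher and 2 lower. In the Leydig list 1 tested gene, and in the blood list 2, passed the filter only through the knockout. No defining marker of these lists was at 0 in all libraries.

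Among germ cell markers before pachytene, 6 of 10 tested genes of early meiotic prophase rose and 0 fell. Of all tested genes 43.3% rose and 30.5% fell. The abundant Sycp3 and Meioc were not called. With an equal median 6 of the 10 were higher and 1 lower. Of the 10, Prdm9 and Dmc1 passed the filter only through the knockout, as did Dmrt1 among the spermatogonial genes. Of 4 tested spermatogonial genes 3 rose and Id4 fell. Without the filter 10 of the 12 listed were higher and 1 lower, next to 34.8% and 16.2% of all genes. The list's summed RPKM, 46.4 to 51.1 in the control and 43.3 to 44.7 in the knockout, is mostly Id4, at means of 40.3 and 23.1. Of the 12 listed genes 8 stayed below 1 RPKM in all libraries. As RPKM is per gene span, introns included, this sum says little about the genes other than Id4. The part of somatic, dividing and early germ cell RNA in the histone values was not tested.

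**Figure D5:**
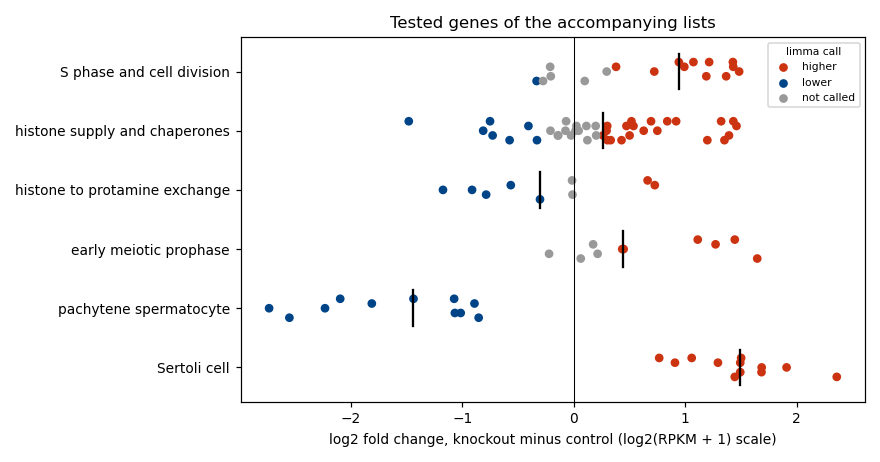
Log2 fold change on the log2(RPKM + 1) scale of each tested gene in 6 lists, coloured by limma call, with a black bar at the list's median. The S phase median lies at 0.94 and that of histone supply at 0.26, while all tested pachytene markers lie below 0 and all tested Sertoli cell markers above 0.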

How the data were processed

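Poly(A) RNA of 4 libraries, 2 control and 2 knockout, was enriched and sequenced with the NEBNext Ultra II RNA kit, per the labels' protocols, a kit that does not mark strand. The authors deposited 1 table of RPKM values with 24444 rows. The submitters' processing notes name Bowtie2 and build mm9, without versions, and the counting program is not given in the sources used here. Low values moved in steps of gene span, introns included (42.0% to 44.8% of them within 0.05 of whole), so no count test was run. Left out were 27 rows with a date for a symbol and 29 repeats of a symbol. Groups came from sample titles. Knockout and control were compared by limma 3.58.1 (R 4.3.3) with a mean-variance trend on log2(RPKM + 1), two-sided, with Benjamini-Hochberg adjustment over 9099 genes. On simulated data of these genes the fit recovered 96 of 100 genes changed 2-fold and 36 of 100 changed 1.41-fold, with 8 false calls among 140. The simulation changed only these genes among 9099, all upward, whereas 73.8% of genes were called in the real data. Its rates therefore do not carry over to the real calls. A log2 fold change on this scale understates that of low genes.

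Every testis and replacement variant is named, and of the replication-dependent genes the 16 most abundant and each called one, with up to 5 called genes per direction of the supply, exchange and S phase lists and the 2 most abundant of other lists. Further genes were chosen after their values were seen, and 1 gene of the exchange list is not reported here. Members and lists were chosen with earlier results of these data known. Window sharing compared each 50-base window of the longest coding transcript with all GENCODE M21 transcripts, both strands. RefSeq names matched 82 members. Alternatives are given at the end.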

Additional observations from a re-analysis of the deposited data

How the results depend on the processing

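Counts are higher then lower. The counts of called replication-dependent genes kept within 1.5 times of 17 and 11 under the pseudocounts, the 3 scalings, limma without the trend, the replicate block and each library left out, where they ran from 15 to 19 and from 10 to 13. At 5 RPKM only 9 were higher, since fewer genes were tested, and 0 testis variants were lower. Replacement variants had 2 lower with an equal RPKM sum and 2 with quantile normalization, and 1 higher with an equal median. With each library left out, all genes ran from 3034 to 3949 and from 2085 to 2902, replacement variants from 1 to 2 and from 3 to 5, and testis variants from 0 to 1 higher with 3 lower.

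Among all genes, 7370 were higher without the filter, 1080 and 1629 at 5 RPKM, and 1698 were lower with an equal RPKM sum. The calls split 75.9% higher with an equal RPKM sum (median log2 fold change 0.44), 46.3% with an equal median (-0.05) and 50.9% with quantile normalization (0.01), against 58.7% as deposited. Chosen after seeing the data, counting identical rows once changed no count by over 1.5 times, and keeping members with under 50% shared windows left 5 replication-dependent genes higher and 3 lower, by its own construction.

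Hist1 H2A genes stayed at 8 to 12 higher and 1 lower, and Hist2 at 7 lower, under every alternative other than those chosen after seeing the data, with 1 Hist2 gene higher without control replicate 2. Signs turned with an equal RPKM sum for H2afj (0.17), H3f3a (0.04), H3f3b (0.30) and Hist3h2a (0.16), with an equal median for Hist1h2ba (-0.06) and H2afv (-0.08), with quantile normalization for H2afj (0.06), H2afv (-0.02), H3f3b (0.90) and Hist3h2a (0.23), and without knockout replicate 1 for Hist1h2ba (-0.25), which was called higher without knockout replicate 2 (0.53). Among the 14 alternatives, summing the rows of a repeated symbol could not change a member's values, as no member symbol repeats. Of 599 values of named genes under the 14 alternatives 555 kept direction and side of the threshold, 25 lost their call and 8 gained one. The cause was not tested.

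With the replicate number as a block, 1 replacement variant was higher in place of 2 (H1fx, adjusted p = 0.052), and 17 and 11 replication-dependent genes were called. Same-numbered libraries deviated together with r = 0.109 across genes, and the labels give them only a number. Without 1 library an arm holds 1 sample, which is assumed to vary like the other group. Depth limits the genes near 1 RPKM, most of all in knockout replicate 2 and control replicate 1.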
